A study of Mus musculus with 4 samples.

Results

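The mouse Zfp genes are a large set of zinc finger genes, named by number and not by function. The set described here holds the symbols made of Zfp and a number below 500, with an optional letter and nothing else, Zfp239 left out. Of 174 such symbols in the deposited table, the 155 with at least 1 CPM (reads per 1000000 of the scaled library) in at least 2 of the 4 libraries are the members, out of 15364 genes tested and 24420 symbols in all. The members were therefore chosen by expression level, and their levels are given as description. RNA was sequenced from testis of FVB mice, with 2 libraries labelled lrrc8a MUT and 2 labelled WT. The sources used here give neither the kind of mutation nor the age of the mice. They do not say that each library came from its own animal, so the p-values cover a spread among libraries that could be technical. The labels name the source as testis and the cell type as germ cells, but somatic testis markers were also present.

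Most Zfp genes encode transcription factors with repeated C2H2 zinc fingers, in which a zinc ion is held by a pair of cysteines and a pair of histidines and each finger can contact a few bases of DNA. Many also carry a KRAB box, which recruits the corepressor TRIM28 and histone methylation machinery to silence transposable elements and imprinted loci. Others carry a SCAN domain, which pairs these proteins with each other, and a few are zinc finger proteins of other kinds, with roles in RNA binding or protein modification.

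The sequence features were read from the GENCODE reading frames. A KRAB-like box was found in 80 members and not found in 75. The number of C2H2 motifs had a median of 11 and ran from 0 to 36 (Zfp142). It was 12 in members with a KRAB-like box and 7 in those without. The 5 members with no such motif were Zfp36, which encodes the mRNA-binding protein tristetraprolin, Zfp185, Zfp330, Zfp474 and the pseudogene Zfp389. A pair of members is shown as DNA because they were the one called in the test below and the one with the next smallest p, and because their fingers are built differently. Zfp449 has 7 fingers, all in the last of 5 exons of its transcript, within chrX:56363041-56363607 on GRCm38 (plus strand). The 7 units, 63 bases each from the first cysteine codon to the last histidine codon, are given 5′ to 3′ with the codons of the cysteines and histidines in capitals, credited to GENCODE vM21.
Zfp449 finger 1: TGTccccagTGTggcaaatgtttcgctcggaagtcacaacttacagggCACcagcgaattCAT
Zfp449 finger 2: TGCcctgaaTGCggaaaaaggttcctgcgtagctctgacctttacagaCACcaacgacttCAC
Zfp449 finger 3: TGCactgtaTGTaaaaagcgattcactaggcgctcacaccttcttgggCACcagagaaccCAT
Zfp449 finger 4: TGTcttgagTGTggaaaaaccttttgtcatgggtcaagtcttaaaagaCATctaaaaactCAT
Zfp449 finger 5: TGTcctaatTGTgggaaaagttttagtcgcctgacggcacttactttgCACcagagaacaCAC
Zfp449 finger 6: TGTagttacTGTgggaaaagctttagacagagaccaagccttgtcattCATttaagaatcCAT
Zfp449 finger 7: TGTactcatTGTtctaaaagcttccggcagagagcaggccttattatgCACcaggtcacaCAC
The 21 pairs of these units shared between 49.2% and 65.1% of their bases. Zfp385a has 3 units of 69 bases, with 5 residues between the histidines in place of 3, and each is split by an intron, within chr15:103315436-103320322 (minus strand).
Zfp385a finger 1: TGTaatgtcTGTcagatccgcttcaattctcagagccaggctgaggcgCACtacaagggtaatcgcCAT
Zfp385a finger 2: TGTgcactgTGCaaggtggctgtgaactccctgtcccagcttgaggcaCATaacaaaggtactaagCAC
Zfp385a finger 3: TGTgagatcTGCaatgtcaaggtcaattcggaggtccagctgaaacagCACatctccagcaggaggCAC

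The libraries held 48409785 and 40426400 reads in MUT, and 68192776 and 50162558 reads in WT. Lrrc8a, a subunit gene of the volume-regulated anion channel, was at 13.5 and 15.9 CPM in MUT testis, against 18.2 and 17.2 CPM in WT testis (log2 fold change -0.26, limma adjusted p = 0.218), a difference that did not pass the test, so its level does not check the genotype labels. All 9 germ cell markers passed the level filter, with a summed level of 12230 and 11570 CPM in MUT testis, against 13090 and 12210 CPM in WT testis. By log2 fold change 3 of the 9 lay above 0 and 6 below, and none was called. The 6 Sertoli markers summed to 877 and 912 CPM in MUT testis, against 852 and 806 CPM in WT testis. Most of that sum was Clu. Of the 6, 5 were higher without overlap (83.3%, against 23% of all tested genes), Wt1 lay below 0 with overlapping groups, and none was called. The 5 Leydig markers summed to 1051 and 1087 CPM in MUT testis, against 910 and 890 CPM in WT testis. Most of that sum was Cyp17a1 of androgen synthesis, the 1 Leydig marker called higher. By log2 fold change 4 of the 5 lay above 0. Insl3 lay below (-0.28), at 30.2 and 20.2 CPM in MUT testis, against 23.3 and 39.2 CPM in WT testis, with overlapping groups. The 4 peritubular myoid markers summed to 83.1 and 92.3 CPM in MUT testis, against 104.5 and 98.5 CPM in WT testis. All 4 lay below 0 by log2 fold change, 3 of them without overlap (75%, against 22.6% of all tested genes), and none was called. The 4 macrophage markers summed to 26.2 and 30.03 CPM in MUT testis, against 28.03 and 27.04 CPM in WT testis, and the 3 endothelial markers to 16.7 and 18.8 CPM in MUT testis, against 16.6 and 17.4 CPM in WT testis. The 3 lymphocyte markers stayed between 2.98 and 3.92 CPM and the 3 epididymis markers between 0.261 and 0.66 CPM in the 4 libraries. Of 3 erythroid markers listed only Alas2 passed the level filter, and its 19.9 to 24.1 CPM were the whole erythroid sum. The part of these cell types in the results below was not tested, and in bulk tissue fewer cells of a type and less RNA per cell cannot be told apart.

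The members were mostly expressed at low to moderate levels. Their mean over the 4 libraries had a median of 12.4 CPM and ran from 1.10 to 495 CPM. There were 39 members under 5 CPM, 94 from 5 to 50 CPM and 22 at 50 CPM or more, of which 11 reached 100 CPM. Of the 22, 5 had a KRAB-like box and 17 did not. All members together took 4770 and 4797 CPM in MUT, against 4672 and 4736 CPM in WT.

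Per kilobase of the longest annotated transcript, the members with a KRAB-like box had a median level of 1.52 CPM per kb and those without one of 4.35 CPM per kb. The highest level per length was that of Zfp385a, an RNA-binding and p53-associated factor, at 70.1 and 74.98 CPM per kb in MUT testis, against 92.8 and 82.6 CPM per kb in WT testis. Zfp474 followed at 68.1 and 71.8 CPM per kb in MUT testis, against 63.8 and 62.2 CPM per kb in WT testis. Next came Zfp37, a KRAB gene known for its expression in male germ cells, at 62.1 and 65.9 CPM per kb in MUT testis, against 59.4 and 64.6 CPM per kb in WT testis. Over the 4 libraries the ranges of these neighbours overlapped, but within each library Zfp385a was above Zfp474, and Zfp474 was above Zfp37 in 3 of the 4. Zfp35, a gene known from mouse testis, was at 44.3 and 44.9 CPM per kb in MUT testis, against 46.2 and 48.7 CPM per kb in WT testis. Zfp217, a transcription regulator gene amplified in human cancers, was at 44.8 and 44.1 CPM per kb in MUT testis, against 45.2 and 43.6 CPM per kb in WT testis, overlapping Zfp35. At the low end, Zfp101 and Zfp9 had 0.272 and 0.288 CPM per kb on average.

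At the threshold of the choice, Zfp119b was just inside with 1.19 and 1.15 CPM in MUT testis, against 1.16 and 1.05 CPM in WT testis, and Zfp53 with 1.29 and 1.03 CPM in MUT testis, against 0.905 and 1.17 CPM in WT testis. Just outside were Zfp109 at 1.23 and 0.928 CPM in MUT testis, against 0.875 and 0.684 CPM in WT testis, and Zfp85 at 0.738 and 1.08 CPM in MUT testis, against 0.712 and 0.925 CPM in WT testis. The 19 symbols below the threshold all had reads in at least 1 library, and Zfp352 had a single read. With no filter on level, none of them was called (limma adjusted p of 0.405 or more). Of the members, 1 passed through the libraries of one genotype only: Zfp9, which had to differ to be included.

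Comparing lrrc8a MUT with WT testis, 1 of the 155 members rose, none fell and 154 did not pass the test. Over all tested genes 0.749% were called, 0.482% higher and 0.267% lower, so a single call among the members (limma, Benjamini-Hochberg adjustment over all tested genes) is close to the background. An unadjusted p under 0.05 was reached by 23 members (14.8%), 18 higher and 5 lower, against 14.7% of all tested genes. The members' log2 fold changes, on the scale of log2(CPM + 0.5), had a median of 0.03, with quartiles of -0.05 and 0.14 and the whole range from -0.29 to 0.72. The median over all tested genes was -0.0016. For 145 members the 95% interval of the difference lay within 1.5-fold in both directions, and for 43 within 1.2-fold.

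**Figure D1:**
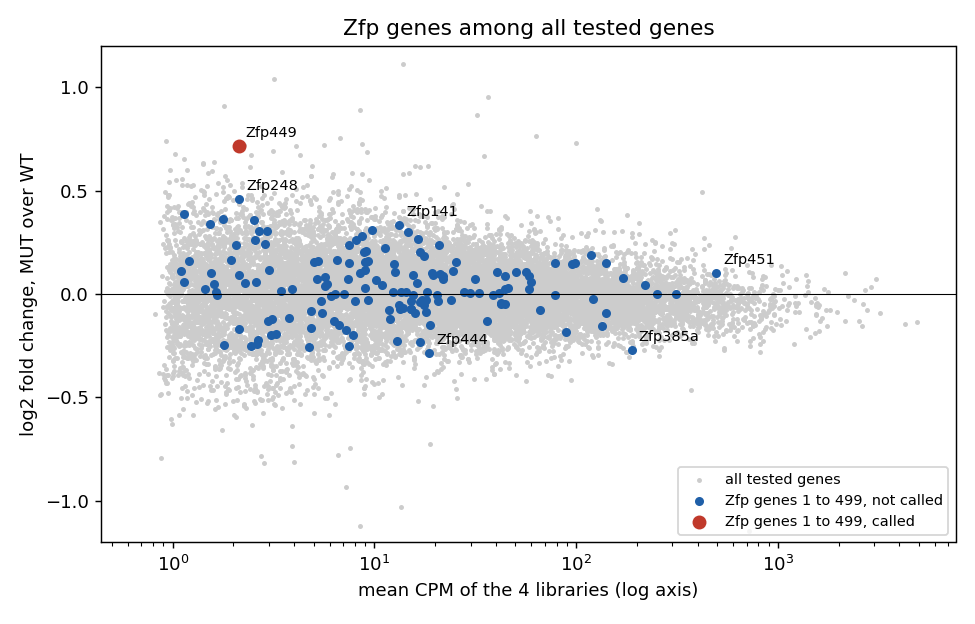
Mean CPM over the 4 libraries (log axis) against the log2 fold change, MUT over WT, for all tested genes (grey, genes beyond 1.2 not drawn), the members not called (blue) and the called member (red). The members lie within the cloud of all genes from -0.29 to 0.72, and Zfp449 is the highest of them.

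Zfp449, a SCAN-domain gene on the X chromosome (56346400 to 56365674, GRCm38), had 2.69 and 2.83 CPM in the MUT libraries, against 1.60 and 1.37 CPM in the WT libraries. These values rest on 131 and 116 reads in MUT and 108 and 68 reads in WT. Both MUT libraries lay above both WT libraries, with means of 2.76 ± 0.105 CPM in MUT and 1.49 ± 0.166 CPM in WT (SD, n = 2 each). The log2 fold change was 0.72 (SE 0.156, 95% interval 0.39 to 1.05, limma adjusted p = 0.0341). None of its 50-base stretches occurred in another gene's transcript, and no annotated gene overlaps it. The difference kept its direction and most of its size where the call was lost. It was 0.69 without MUT 2 (limma adjusted p = 0.0746), 0.63 without WT 2 (0.132), 0.72 after quantile normalization (0.059) and 0.70 once a trend of log2 level on transcript GC and length was taken out of each library (0.0712).

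Zfp385a, at 165 and 176 CPM in MUT testis, against 218 and 194 CPM in WT testis, had the next smallest p, with a log2 fold change of -0.27 (SE 0.0698, limma adjusted p = 0.076). Both MUT libraries lay below both WT libraries, with WT 1 the farthest out. It was called lower without WT 2 (adjusted p = 0.0178) and by DESeq2 on the recovered reads (0.0462), and its difference was -0.19 without WT 1. Its transcript has a GC content of 62.6%, and with the trend on GC content and length removed the log2 fold change was -0.15 (adjusted p = 0.247). Its paralog Zfp385b was at 15.2 and 14.3 CPM in MUT testis, against 14.5 and 16.6 CPM in WT testis, with the groups overlapping.

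The libraries of the genotypes did not overlap for 69 members, or 44.5%, against 45.6% of all tested genes. Both MUT libraries were higher in 46 members (29.7%, against 23% of all genes) and lower in 23 (14.8%, against 22.6%). A log2 fold change above 0 was seen in 94 members (60.6%), against 49.6% of all genes. Neither share was tested, since members share sequence and base composition and are not independent of each other.

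Among the members that did not pass the test, the 8 largest upward differences without overlap were all in genes with a KRAB-like box. The called Zfp449 has no such box. The share higher without overlap was 30% with the box and 29.3% without it. Median levels were 7.35 CPM with the box and 18.1 CPM without it, and median SE 0.116 and 0.0942. Zfp248 was at 2.75 and 2.35 CPM in MUT testis, against 1.69 and 1.73 CPM in WT testis (log2 fold change 0.46, limma adjusted p = 0.174). Zfp9 was at 1.35 and 1.37 CPM in MUT testis, against 0.964 and 0.885 CPM in WT testis. It passed the level filter through its MUT libraries only, so its upward difference was set by the choice. Zfp433 was at 2.13 and 1.98 CPM in MUT testis, against 1.41 and 1.57 CPM in WT testis. However, 94.2% of its 50-base stretches also occur in transcripts of other genes, so its reads may be lost or miscounted. These genes sit near the threshold, where few reads stand behind each value.

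Zfp369, a relative of the neurotrophin receptor interacting factor gene Zfp110, was at 2.73 and 3.05 CPM in MUT testis, against 2.09 and 2.19 CPM in WT testis. Zfp235 was at 1.97 and 1.59 CPM in MUT testis, against 1.37 and 1.23 CPM in WT testis, and Zfp383 at 2.75 and 3.27 CPM in MUT testis, against 2.52 and 2.15 CPM in WT testis. Zfp141, with more reads, was at 14.5 and 15.3 CPM in MUT testis, against 12.03 and 11.3 CPM in WT testis (log2 fold change 0.34, SE 0.0978, limma adjusted p = 0.113). Zfp398 was at 10.99 and 10.6 CPM in MUT testis, against 8.41 and 8.87 CPM in WT testis. For each of these 5 genes the lowest MUT library was above the highest WT library, but none passed the test.

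The 8 largest downward differences without overlap were smaller, between -0.20 and -0.29 on the log2 scale, and included Zfp385a. Zfp444, a SCAN-domain gene, was at 18.1 and 15.5 CPM in MUT testis, against 21.0 and 20.2 CPM in WT testis (log2 fold change -0.29, limma adjusted p = 0.172). Zfp69, a KRAB gene linked to diabetes in mice, was at 5.93 and 7.65 CPM in MUT testis, against 8.25 and 8.002 CPM in WT testis, with MUT 1 well below the other libraries. Zfp61 was at 16.3 and 14.5 CPM in MUT testis, against 17.3 and 19.02 CPM in WT testis. Zfp7, Zfp420, Zfp354b and Zfp316 differed by -0.26, -0.24, -0.23 and -0.20 on the log2 scale. Among them, Zfp354b shares 21.6% and Zfp7 14.5% of its 50-base stretches with transcripts of other genes.

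**Figure D2:**
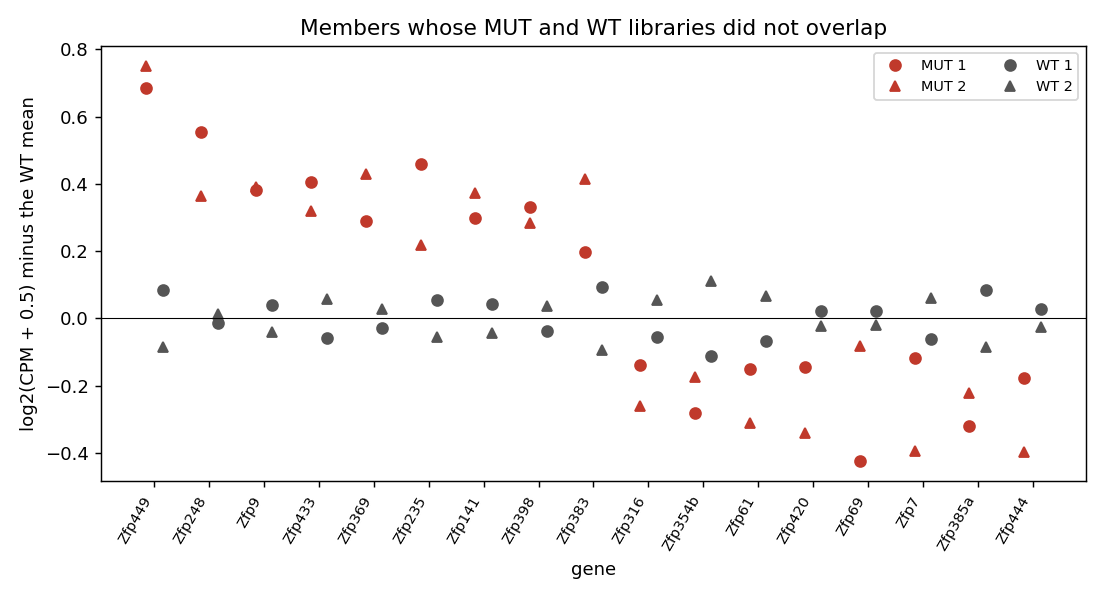
log2(CPM + 0.5) in each library minus the WT mean for Zfp449, the 8 members with the largest upward and the 8 with the largest downward difference whose genotypes did not overlap. Red symbols are MUT and grey symbols WT, with circles for replicate 1 and triangles for replicate 2, and Zfp449 stands highest at a log2 fold change of 0.72.

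Among the members with named roles, only Zfp449 was called. Of all tested genes 0.749% were called. Groups of 2 to 12 genes are too small for their counts of calls to be read against that share. Both genes that protect imprints, Zfp445 and Zfp57, were well expressed, Zfp445 at 60.8 and 55.8 CPM in MUT testis, against 53.7 and 54.2 CPM in WT testis, and Zfp57 at 42.5 and 44.4 CPM in MUT testis, against 47.1 and 42.7 CPM in WT testis. Their log2 fold changes were 0.11 and -0.05, and neither passed the test.

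Of 6 members known from pluripotent cells, none was called. Zfp281, a regulator of the exit from pluripotency, was at 22.3 and 22.6 CPM in MUT testis, against 17 and 21.3 CPM in WT testis (log2 fold change 0.24, limma adjusted p = 0.285). The groups did not overlap, but WT 2 lay close to the MUT values and WT 1 apart from them. Zfp42, the marker also called Rex1, was at 11.3 and 10.9 CPM in MUT testis, against 11.1 and 10.4 CPM in WT testis. Zfp462 and Zfp143, a general transcription activator, had log2 fold changes of -0.0027 and -0.07, with overlapping groups.

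A list of members with a SCAN domain, which may leave some out, held 10 tested genes. Of these, 1 rose (Zfp449), none fell and 9 did not pass the test, against 0.749% called of all tested genes. The one with the most reads, Zfp110, which encodes an interactor of the p75 neurotrophin receptor, was at 115 and 124 CPM in MUT testis, against 122 and 121 CPM in WT testis. Zfp263 and Zfp397 had log2 fold changes of 0.03 and 0.11, and their groups overlapped. Among 6 KRAB genes of testis or kidney, none was called. Zfp37 was at 217 and 230 CPM in MUT testis, against 208 and 226 CPM in WT testis, and Zfp59 at 17.2 and 17.3 CPM in MUT testis, against 17.9 and 18.0 CPM in WT testis, although 52.4% of the 50-base stretches of Zfp59 occur in other transcripts. Zfp354c, a paralog of Zfp354b, had a log2 fold change of -0.09 with overlapping groups.

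Of 12 general regulators of transcription, none was called. Zfp318, first described as a testicular zinc finger gene, was at 316 and 311 CPM in MUT testis, against 304 and 323 CPM in WT testis, and Zfp217 at 255 and 251 CPM in MUT testis, against 257 and 248 CPM in WT testis. Their 95% intervals were among the 43 that lay within 1.2-fold. Zfp219, a partner of SOX9 in cartilage, was at 83.6 and 82.6 CPM in MUT testis, against 88.7 and 100.3 CPM in WT testis (log2 fold change -0.18, limma adjusted p = 0.253), and 3 annotated genes overlap it on the opposite strand. Zfp384, which regulates bone matrix genes, was at 74.95 and 81.2 CPM in MUT testis, against 80.5 and 76.3 CPM in WT testis. Of 4 genes of fat and bone development, 3 of them members by name, Zfp423, Zfp395 and Zfp467 had log2 fold changes of -0.04, 0.01 and 0.11, and none was called.

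Among 6 members that bind or process RNA, none was called. Besides Zfp385a, Zfp106, needed for motor neuron and muscle function in mice, was at 106 and 102 CPM in MUT testis, against 93.2 and 94.5 CPM in WT testis (log2 fold change 0.15, SE 0.0672, limma adjusted p = 0.301), with no overlap. Zfp346, which binds double-stranded RNA, and Zfp326, of a complex that links transcription to splicing, had log2 fold changes of 0.03 and -0.0024. Zfp451, a SUMO ligase gene and the member with the most reads, was at 520 and 504 CPM in MUT testis, against 469 and 487 CPM in WT testis, with no overlap and a log2 fold change of 0.10 (adjusted p = 0.45). Zfp207, a spindle assembly factor, was at 100.7 and 100.5 CPM in MUT testis, against 90.9 and 91.0 CPM in WT testis (0.14, adjusted p = 0.322). Zfp91, a ubiquitin ligase gene, was at 123 and 130 CPM in MUT testis, against 130 and 153 CPM in WT testis, with overlapping groups.

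The members with a KRAB-like box had a median log2 fold change of 0.03, with 24 higher (30%) and 12 lower (15%) without overlap among 80. Those without the box had a median of 0.03, with 22 higher (29.3%) and 11 lower (14.7%) among 75. Over all tested genes these shares were 23% and 22.6%. By number of C2H2 motifs the median was 0.0043 for 0 motifs (5 members), -0.0024 for 1 to 4 (25), 0.02 for 5 to 9 (42), 0.05 for 10 to 14 (49) and 0.08 for 15 or more (34). Across members, Spearman's rho between motif number and log2 fold change was 0.14 (n = 155). This is a description only, since motif number also goes with base composition, with a median GC content of 42.97% for 15 or more motifs and 47.08% for 1 to 4.

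**Figure D3:**
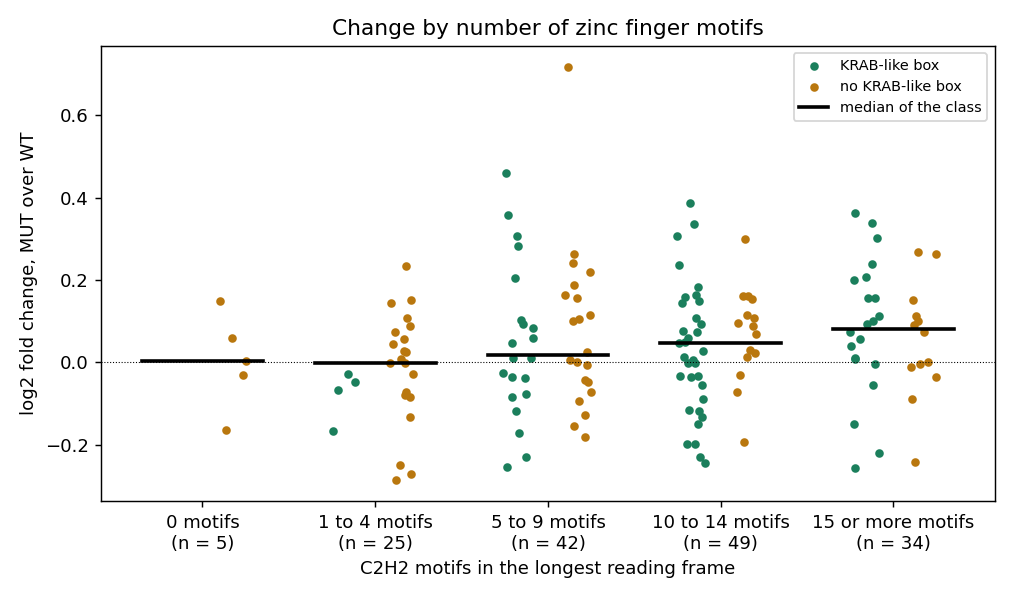
log2 fold change, MUT over WT, of each member by the number of C2H2 motifs in its longest reading frame, with green points for members with a KRAB-like box, orange points for those without, and a bar at the median of each class. Class medians run from -0.0024 (1 to 4 motifs) to 0.08 (15 or more motifs), well inside the scatter of single members.

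Base composition moved with the differences. The members' transcripts had a median GC content of 44.96%, against 49.6% for all tested genes. Spearman's rho between GC content and log2 fold change was -0.24 across the members and -0.21 across 15249 tested genes with a transcript. In the 52 members with the lowest GC content (at most 42.1%), both MUT libraries were higher in 20 (38.5%) and lower in 3 (5.77%). Among all tested genes of the same GC range these shares were 26.1% and 15.2%. In the 52 with the highest GC content (above 48.1%), 11 members were higher and 13 lower without overlap, or 21.2% and 25%, against 18.5% and 27.6% of all genes in that range. After the trend on GC content and length was removed from each library, the members' median log2 fold change was 0.02, against -0.0044 for all genes. No member was then called, although Zfp449 was still at 0.70. The part of base composition in the differences was not tested.

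**Figure D4:**
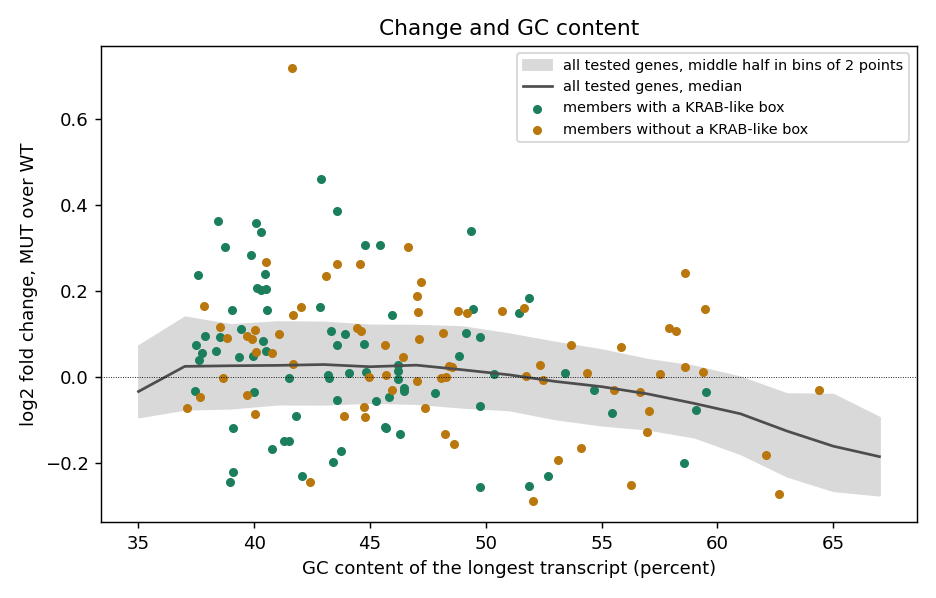
GC content of the longest annotated transcript against the log2 fold change, MUT over WT, with the median and quartiles of all tested genes in bins of 2 percentage points (line and grey band) and the members as points (green with, orange without a KRAB-like box). The line falls below 0 at high GC content, and the 52 members with the lowest GC content have a median of 0.09.

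The members lie on 19 chromosomes, with 32 on chromosome 7, 17 on chromosome 17 and 16 on chromosome 13, where zinc finger genes form clusters. The median log2 fold change was 0.01 on chromosome 7, 0.04 on chromosome 17 and 0.0035 on chromosome 13. The share without overlap was 40.6% on chromosome 7, 17.6% on chromosome 17 and 37.5% on chromosome 13, against 45.6% of all tested genes. On chromosome 17 these were 3 of the 17, each of them higher. Chromosomes with fewer members ranged widely, such as 12.5% of 8 on chromosome 8 and 75% of 8 on chromosome 6. Reads of clustered copies may be lost or miscounted: 80 members share at least 1 stretch of 50 bases with a transcript of another gene, and 18 share over 10% of their stretches.

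Members were set beside the Zfp genes numbered 500 or higher and the Zscan, Zkscan and Zbtb genes, as description. Of 155 members 1 was called higher, against 0 of 158 Zfp genes with higher numbers and 0 of 61 Zscan, Zkscan and Zbtb genes. The counts called lower were 0, 0 and 1. The median log2 fold changes were 0.03, 0.02 and 0.06, and the shares without overlap 44.5%, 41.8% and 50.8%. No difference between these sets was tested.

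Genes that work with the KRAB box were listed too, with earlier results of these data known. Of 27 tested partner genes, none was called higher or lower, against 0.749% of all tested genes, and the median log2 fold change was -0.02. A list this small can hold no call at that share, so the count says little. Without overlap 6 were higher (22.2%) and 8 lower (29.6%), against 23% and 22.6% of all tested genes. Trim28, the corepressor that KRAB boxes bind, was at 528 and 563 CPM in MUT testis, against 624 and 608 CPM in WT testis (log2 fold change -0.18, SE 0.0598, limma adjusted p = 0.175), with no overlap. Chd4, a remodeler of the NuRD complex, was at 354 and 320 CPM in MUT testis, against 349 and 343 CPM in WT testis, with overlapping groups. Atrx, a chromatin remodeler gene named after its values were seen, had the largest difference of the list, at 19.9 and 18.1 CPM in MUT testis, against 14.3 and 14.7 CPM in WT testis. Its groups did not overlap, and its log2 fold change of 0.38 did not pass the test (limma adjusted p = 0.064). None of the 4 genes of the HUSH silencing complex was called, too few to be read against the 0.749% of all tested genes. Morc2a, Mphosph8 and Pphln1 had log2 fold changes of -0.03, 0.14 and -0.07. Of 29 imprinted genes listed, 22 were tested and none was called, against 0.749% of all tested genes. Without overlap 9 were higher (40.9%, against 23% of all tested genes) and 3 lower (13.6%, against 22.6%). Those with the most reads were Gnas, Peg10 and Kcnq1ot1, with log2 fold changes of 0.08, 0.32 and 0.0051. Peg10 was at 48.1 and 46.6 CPM in MUT testis, against 40.2 and 35.5 CPM in WT testis (limma adjusted p = 0.0679).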

How the data were processed

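The submitters' processing notes name the tools edgeR 3.8.6, HTSeq 0.6.0 and TopHat2 2.0.10 and the build mm10, without roles. Per the labels, libraries were stranded; whether counting used strand is not stated there. The authors deposited one table of CPM (reads per 1000000 of the scaled library size). All values (100%, within 0.001) are whole steps of 1 read, so reads could be recovered. A floor of 3 reads is 0.0445 to 0.0733 CPM. Intervals and floors cover counting and library spread only.

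Genes with at least 1 CPM in at least 2 libraries were tested on log2(CPM + 0.5), MUT minus WT, with limma 3.58.1 (trend) in R 4.3.3, two-sided, called at an adjusted p under 0.05. On simulated reads this fit called 20%, 86%, 94% and 100% of genes changed 1.2-, 1.5-, 2- and 4-fold, with 2 false calls among 152 over 15269 genes. The simulated spread followed the variance trend exactly, without scatter between genes, so the real libraries may do worse. The recovered reads also went through edgeR 4.0.16 and DESeq2 1.42.0.

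Gene positions, lengths and reading frames come from GENCODE vM21 (GRCm38, the build called mm10); 154 members matched by name and 1 by a RefSeq synonym. A C2H2 motif is a pair of cysteines 2 to 4 residues apart, 12 residues, and a pair of histidines 3 to 5 apart. A KRAB-like box is a window of 40 residues scoring above 0 bits against a matrix built from 148 genes with a strict pattern.

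Named members are those called, the 8 not called with the largest difference each way without overlap, the 5 highest per kb, those beside the threshold and up to 4 per role. Others (such as Zfp438, Zfp385b, Zfp101, Atrx and the genes near Zfp239) were chosen after their values were seen. The members and lists were chosen with earlier results of these data known. A further gene of the KRAB partner list that the rule would name is not reported here.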

Additional observations from a re-analysis of the deposited data

How the results depend on the processing

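Of all genes, 74 were called higher and 41 lower. These numbers became 5 and 2 without the variance trend, 7 and 4 without the filter, 35 and 18 after quantile normalization, 127 and 35 with libraries rescaled to a sum of 1000000, 113 and 37 rescaled without the 100 most abundant genes, 49 and 36 with the GC and length trend removed, 86 and 71 by DESeq2, and 71 to 115 higher and 43 to 165 lower with a library left out. The replicate block gave 57 and 31, and 22 and 14 with the GC and length trend removed as well. Same-numbered libraries deviated against each other (correlation -0.134). With 2 libraries per genotype this is a single contrast, so it cannot decide whether the numbers pair the libraries. A crossed pairing, added after the data were seen, gave 131 and 104, with 1 member higher and 1 lower. Members called higher were 0 without the trend, without the filter, after quantile normalization, with the GC and length trend removed (also with the block) and by DESeq2, which gave Zfp449 no adjusted p. They were 0 to 2 with a library left out, the second being Zfp438 without WT 1. Members called lower were 0 to 1 with a library left out and 1 by DESeq2, Zfp385a each time. The other alternatives left the member counts at 1 and 0. Zfp449 stayed above 0 (0.60 to 0.88) in 18 alternatives with an adjusted p for this gene, which leave out DESeq2. That adjusted p was under 0.05 in 11 of them, counting the crossed pairing, which was not planned. The members' median of 0.0288 was 0.0572 and 0.0511 under the rescalings, which moved the median of all genes to 0.03 and 0.02, and 0.0239 to 0.0536 with a library left out.

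Differences near 0 changed sign without any call. Rescaled to a sum of 1000000, Zfp462 at 0.0256, Zfp110 at 0.0038, Zfp318 at 0.0285, Zfp384 at 0.0221 and Zfp326 at 0.0256 were above 0, and without the 100 most abundant genes Zfp462 at 0.0195, Zfp318 at 0.0223, Zfp384 at 0.0159 and Zfp326 at 0.0196. After quantile normalization the values were Zfp110 at 0.0011, Zfp395 at -0.0253, Zfp318 at 0.0313 and Zfp384 at 0.0004. With the GC and length trend removed, with or without the block, they were Zfp217 at -0.0334, Zfp384 at 0.0013 and Zfp451 at -0.014. With a library left out, the ranges were -0.0129 to 0.1056 for Zfp37, -0.0234 to 0.0273 for Zfp217, -0.0109 to 0.2352 for Zfp53, -0.1158 to 0.0233 for Zfp57, -0.0574 to 0.0519 for Zfp462, -0.1697 to 0.0288 for Zfp143, -0.0009 to 0.0924 for Zfp42, -0.0807 to 0.0311 for Zfp110, -0.0273 to 0.0776 for Zfp263, -0.217 to 0.0372 for Zfp354c, -0.2165 to 0.1454 for Zfp423, -0.0672 to 0.0856 for Zfp395, -0.0437 to 0.0433 for Zfp318, -0.0635 to 0.0506 for Zfp384, -0.0051 to 0.0627 for Zfp346 and -0.0664 to 0.0616 for Zfp326. The cause was not tested. For a library left out of a pair, the lone one is assumed to vary like the other genotype.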

Other observations

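A pair of members with upward differences, Zfp248 and Zfp9, lie on chromosome 6 at 118427319 to 118455528 and 118461950 to 118479320 (GRCm38), near Zfp239 (117862100 to 117873291). Zfp9 became a member through its MUT libraries only, so its upward difference was set by the choice. Zfp239 was at 8.45 and 9.68 CPM in MUT testis, against 0.356 and 0.261 CPM in WT testis. Zfp422, from 116624016 on the same chromosome, was at 9.37 and 8.43 CPM in MUT testis, against 6.82 and 7.86 CPM in WT testis (limma adjusted p = 0.295). Zfp637, which is no member and lies beside Zfp239, was at 4.24 and 4.11 CPM in MUT testis, against 2.92 and 3.04 CPM in WT testis (adjusted p = 0.143). Of the 28 other tested genes that start within 2 Mb of Zfp239, 11 were higher and 9 lower without overlap (71.4%, against 45.6% of all tested genes). Of the same 28, 1 was called higher (Rassf4) and 1 lower (Gm30498), against 0.482% and 0.267% of all tested genes. The window was chosen after these values were seen, and no test was run on it.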
